A study of Mus musculus with 7 samples.

Results

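Kruppel-like factors are zinc finger transcription factors, and 10 of their genes (Klf2, Klf3, Klf4, Klf5, Klf6, Klf7, Klf9, Klf10, Klf12 and Klf13) were followed here in cultured group 2 innate lymphoid cells (ILC2s) of mice that lack or carry the transcriptional repressor Gfi1. The genes were chosen by name, through the accession that the array's design gives each probe. Both they and the related lists below were chosen with earlier results of these data known. Each of the 10 has 1 probe on the array, and all 10 were among the 25361 genes tested. The knockout group was 3 arrays of cells from Gfi1GFP/GFP mice, in which a GFP cassette inserted into the Gfi1 locus removes the gene's function and reports the activity of its promoter. The wild-type group was 4 arrays of cells from Gfi1+/+ mice. In both groups the mice received IL-25 daily for 4 days, and ILC2s were sorted on day 5 from the mesenteric lymph nodes by the gate Lin- Sca-1+ ICOS+ CD127+ c-Kit+. The sorted cells were then grown for 6 days with IL-2 at 50 ng/ml, IL-7 at 10 ng/ml and IL-25 at 50 ng/ml. Each knockout sample pooled 6 mice and each wild-type sample pooled 3 mice. The allele is present in every cell of the animal, so the deletion is not limited to ILC2s, and the values describe cells after stimulation and culture.

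Kruppel-like factors bind GC-rich and CACCC elements through 3 zinc fingers at their carboxyl end, and they differ in the amino-terminal parts that recruit coactivators or corepressors. KLF2 is known in T cells for keeping naive cells quiescent and for driving the genes of lymph node entry and exit, KLF4 for pluripotency and monocyte differentiation, and KLF13 for the late expression of the chemokine gene Ccl5. GFI1 is itself a zinc finger repressor, whose DNA motif has the core AATCAC.

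Of the 10 genes, Klf7 fell in the knockout, and none rose, even at an unadjusted p under 0.05. That is 1 of 10 genes past an adjusted p of 0.05 in limma, a linear model with moderated variances, against 7.5% of all genes tested. By direction, 4.23% of all genes were called lower and 3.26% called higher in the knockout. The change in Klf7 was a 1.44-fold fall. The other 9 genes gave log2 differences, knockout minus wild type, between -0.50 and 0.12.

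The promoter windows of RefSeq (build GRCm38.p6, 250 bases before to 50 bases after each gene's start) held 8 of the 10 genes, all but Klf5 and Klf10. The GFI1 core AATCAC, searched on both strands, was found in 2 of the 8 windows, those of Klf7 and Klf9, and in 10.4% of all 32851 windows. The forkhead motif GTAAACA was found in 1 of 8 windows (Klf9) and in 3.65% of all windows. The MEF2 motif, CTA and TAG with 4 bases between them, was found in 1 of 8 windows (Klf2) and in 3.69% of all windows. The letters CACCC, which Kruppel-like factors bind, were found in 6 of 8 windows and in 57.5% of all windows, with 5 matches in Klf3 and 3 in Klf7. A match describes only these letters in this window. Klf7 is shown because it was the gene that fell, Klf9 because its window holds both a GFI1 core and a forkhead motif, and Klf2 because MEF2 factors are a textbook route of its induction by the kinase ERK5.

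The first stretch lies on the minus strand at chr1:64121340-64121369, downstream of the Klf7 start, with the GFI1 core in capitals (it reads as GTGATT because AATCAC is on the other strand, 42 bases after the start).
Klf7 after the start: cttcctgatccacgcgctggaGTGATTaga
The next lies on the minus strand at chr1:64121390-64121639 and holds the 250 bases before the Klf7 start, with the CACCC matches in capitals (read as GGGTG).
Klf7 before the start: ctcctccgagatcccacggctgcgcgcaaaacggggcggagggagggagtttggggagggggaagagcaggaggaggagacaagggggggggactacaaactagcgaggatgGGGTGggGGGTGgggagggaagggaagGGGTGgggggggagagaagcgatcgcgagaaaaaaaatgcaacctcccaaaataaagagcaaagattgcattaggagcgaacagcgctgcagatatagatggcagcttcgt
The third lies on the plus strand at chr19:23140976-23141225 and holds the 250 bases before the Klf9 start, with the GFI1 core in capitals, which shares its CAC with a CACCC match.
Klf9 before the start: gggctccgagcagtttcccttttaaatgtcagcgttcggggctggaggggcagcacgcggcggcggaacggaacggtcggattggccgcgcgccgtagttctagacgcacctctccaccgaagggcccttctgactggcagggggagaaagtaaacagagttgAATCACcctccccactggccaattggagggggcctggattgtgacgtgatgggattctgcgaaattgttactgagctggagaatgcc
The last lies on the plus strand at chr8:72318812-72319061 and holds the 250 bases before the Klf2 start, with the MEF2 motif in capitals.
Klf2 before the start: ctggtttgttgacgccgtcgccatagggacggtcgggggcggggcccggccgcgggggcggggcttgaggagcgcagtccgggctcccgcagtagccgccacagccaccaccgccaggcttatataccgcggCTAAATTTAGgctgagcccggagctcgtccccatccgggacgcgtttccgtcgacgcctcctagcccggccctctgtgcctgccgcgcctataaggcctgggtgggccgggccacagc

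Each array compared Cy5-labelled sample RNA with Cy3-labelled universal mouse reference RNA, so a level is given as the log2 of the Cy5 signal divided by the Cy3 signal, and a difference is the knockout mean of such levels minus the wild-type mean. No array had the dyes swapped, so a ratio to the reference can carry a dye effect, while the differences between groups compare arrays of the same orientation. On each array 67.39% to 80.91% of the probes were well above background. Log ratios of pairs of arrays correlated at 0.969 to 0.980 within the knockout group, 0.979 to 0.989 within the wild-type group and 0.942 to 0.969 between the groups. The Gfi1 probe read 4.28 ± 0.02 in the knockout and 2.02 ± 0.23 in the wild type (SD, n = 3 and 4). Its position relative to the cassette is not known, so it checks no label. All 13 ILC2 markers were well above background on all 7 arrays. Among these, 1 (Il17rb) was higher and 3 (Gata3, Il1rl1 and Ly6a) were lower in the knockout, against 3.26% and 4.23% of all genes tested. At an unadjusted limma p under 0.05, 8 of 13 passed, against 19.5% of all genes tested. The median difference of the list was -0.30. The summed signal of the list was 570681 to 751332 in the knockout and 828332 to 1149267 in the wild type. T cell markers were also present, with 10 of 10 above background on all arrays and none of the 10 called at an adjusted p of 0.05 in limma (3 at an unadjusted p under 0.05). Their summed signal was 10095 to 21016 in the knockout and 10474 to 17106 in the wild type. Of the mast cell and basophil markers 3 of 6 were above background on all arrays, and Cpa3 and Hdc were lower in the knockout, with a summed signal of 954 to 1012 in the knockout and 976 to 1198 in the wild type, while Fcer1a and Ms4a2 were above background on no array. Of the red cell markers 2 of 4 were above background on all arrays, and Hba-a1 was lower in the knockout, with sums of 605 to 665 in the knockout and 824 to 1204 in the wild type, while Hbb-bs was above background on no array. Of the myeloid markers 5 of 8 and of the B cell markers 5 of 6 were above background on all arrays. None of either list was called in limma (1 myeloid and 0 B cell markers at an unadjusted p under 0.05). For every marker list, the shares over all genes tested were 7.5% called and 19.5% at an unadjusted limma p under 0.05. The part of T cells, mast cells, basophils, red cells, myeloid cells and B cells in the results below was not tested. The arrays fell into 2 kinds by sex-linked genes, since knockout 3, wild type 3 and wild type 4 had high Xist and low Ddx3y and the other 4 the reverse.

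**Figure D1:**
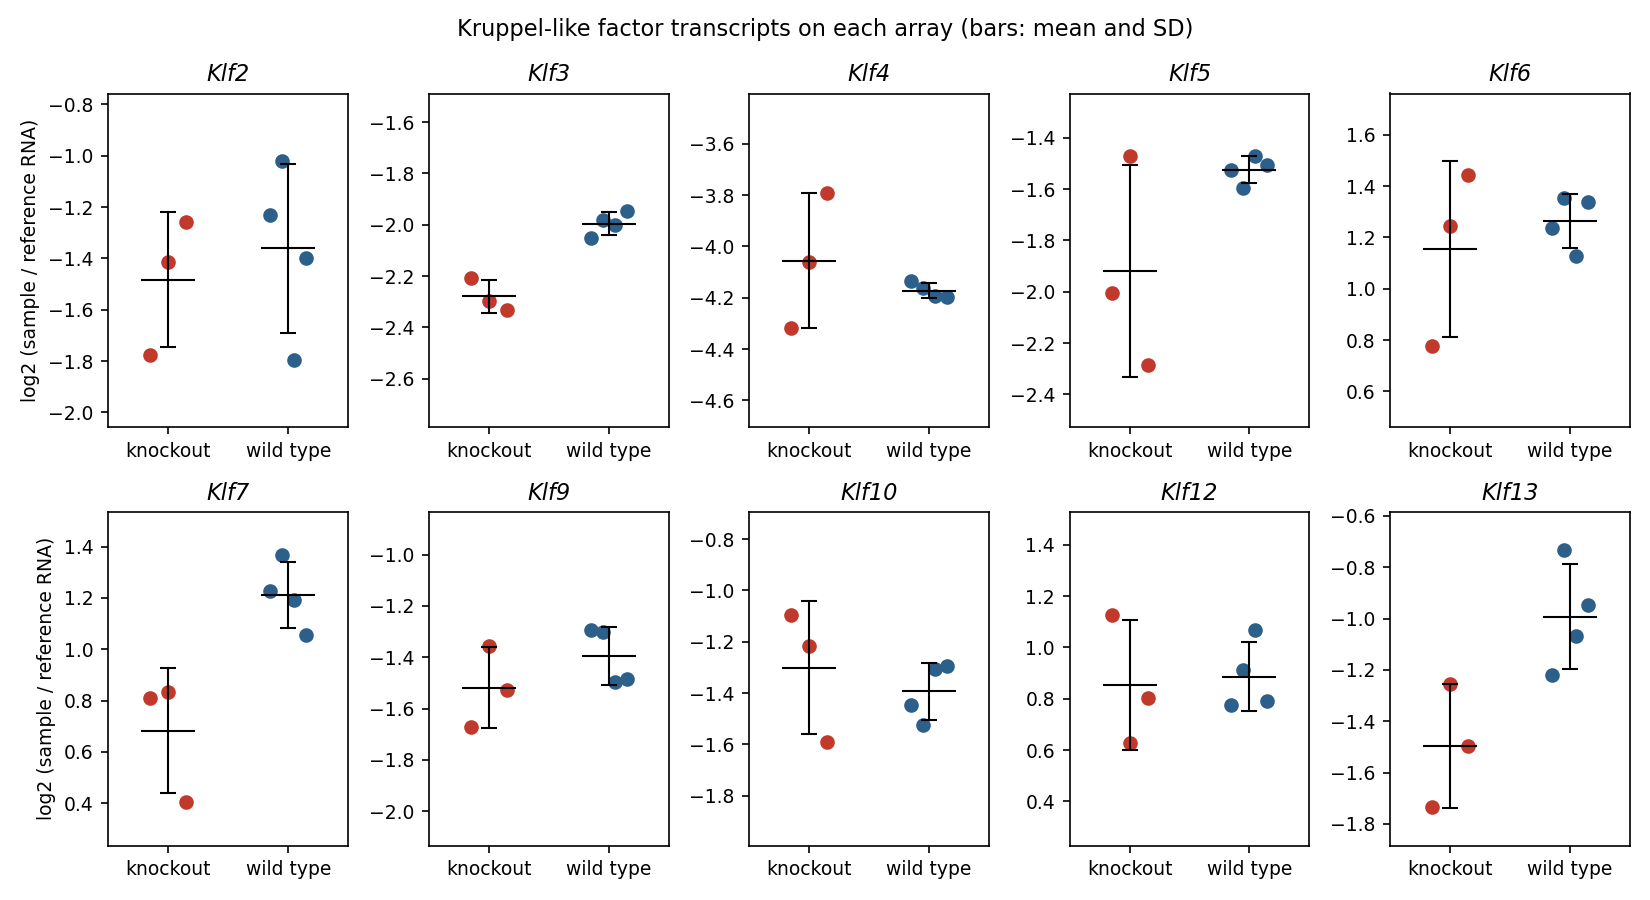
Log2 ratio of sample over reference RNA for each of the 10 Kruppel-like factor genes, with the 3 knockout arrays at left and the 4 wild-type arrays at right in every panel. Points are arrays and bars the mean and SD, and all panels span the same number of log2 units. On these ratios the groups do not overlap for Klf3, Klf7 and Klf13, all of them lower in the knockout.

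Klf7, an activator known for its part in axon outgrowth, read 0.81, 0.83 and 0.40 on the knockout arrays, against 1.23, 1.37, 1.19 and 1.06 on the wild-type arrays. Every knockout array was below every wild-type array, and knockout 3 was the lowest. The mean was 0.68 ± 0.24 in the knockout and 1.21 ± 0.13 in the wild type (SD, n = 3 and 4), a log2 difference of -0.53 (95% confidence interval -0.80 to -0.25, limma adjusted p = 0.0316). The fall lay in the sample channel, where the difference was -0.53 (adjusted p = 0.0454 in limma), while the reference channel differed by -0.01. On all 7 arrays Klf7 lay above the reference RNA. Within slide 1 (knockout 1 and wild type 4) the difference was -0.24, and within slide 2 (knockout 2 and 3, wild type 1) it was -0.61, while slide 3 held wild-type arrays only. Among the arrays of high Xist it was -0.72, and among those of low Xist -0.47. The call was lost without knockout 3 (difference -0.39, adjusted p = 0.0652), without wild type 1, 2 or 3 (limma adjusted p = 0.0729, 0.0885 and 0.0688), with median centring in place of loess (adjusted p = 0.0800), with the scanner's own ratio (adjusted p = 0.0955) and with the slide as a fixed block (difference -0.45, adjusted p = 0.336). Fewer cells with the transcript and less transcript per cell cannot be told apart in RNA from a pool of cells, here and for every gene below.

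Across the 7 arrays, the genes whose log ratios ran most like those of Klf7, out of 16653 compared, were Sipa1l1 (r = 0.995) and Mt2, a metallothionein (also r = 0.995). Their own log2 differences were -0.97 for Sipa1l1 and -1.67 for Mt2. Likeness over 7 arrays of 2 groups is a description and includes the difference between the groups.

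Klf3 and Klf12 encode repressors that recruit the corepressor CtBP. Klf3 read -2.21, -2.30 and -2.33 on the knockout arrays, against -2.05, -1.98, -2.00 and -1.95 on the wild-type arrays. The groups did not overlap, and the arrays of each group lay close together, with SDs of 0.06 in the knockout and 0.04 in the wild type. The log2 difference of Klf3 was -0.28 (95% confidence interval -0.45 to -0.12), a 1.22-fold lower level, and its limma adjusted p of 0.0524 missed the threshold. It was -0.26 within slide 1 and -0.26 within slide 2. Klf3 passed the threshold with no background correction (adjusted p = 0.0268 in limma) and with the slide as a random block (0.0465). It also passed with the mean over the probes of a gene (0.0451). Klf3 has 1 probe, so in that setting its own values stayed the same and only those of other genes changed.

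Klf12 read 1.13, 0.63 and 0.80 on the knockout arrays, against 0.77, 0.91, 1.07 and 0.79 on the wild-type arrays. Knockout arrays were both the highest and the lowest. The log2 difference was -0.03 (95% confidence interval -0.32 to 0.25, limma adjusted p = 0.931), an interval from a 1.25-fold fall to a 1.19-fold rise. Within slide 1 it was 0.33 and within slide 2 it was -0.06. Its reference channel was dim, and the offset of 50 added in background correction pulls the ratios of dim spots toward 0. The scanner's own log2 ratios for Klf12 ran from 1.35 to 1.93 on the knockout arrays and from 1.61 to 2.31 on the wild-type arrays.

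Klf9, Klf10 and Klf13 encode factors that bind the SIN3A corepressor. Klf13 read -1.74, -1.26 and -1.50 on the knockout arrays, against -1.22, -0.73, -1.07 and -0.95 on the wild-type arrays. The groups did not overlap on these ratios, though knockout 2 lay just under wild type 1. With the scanner's own ratios they overlapped, at -1.10 on knockout 2 and -1.12 on wild type 1. The log2 difference was -0.50 (95% confidence interval -0.82 to -0.19, limma adjusted p = 0.0659), a 1.42-fold lower level that missed the threshold. In the sample channel alone the difference was -0.56 (adjusted p = 0.0615 in limma). The within-slide values of Klf13 were uneven, at -0.79 in slide 1 and -0.16 in slide 2, while those within the arrays of high and of low Xist were alike, at -0.49 and -0.52. Without knockout 1 the difference was -0.38 (limma adjusted p = 0.159). Klf13 passed the threshold in 3 of 25 other settings, among them without knockout 2 (difference -0.62, adjusted p = 0.0487) and with the slide as a random block (adjusted p = 0.0492 in limma).

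Klf9, a gene that glucocorticoids induce in many cell types, read -1.67, -1.36 and -1.53 on the knockout arrays, against -1.30, -1.30, -1.50 and -1.49 on the wild-type arrays. The groups overlapped, and the log2 difference was -0.12 (95% confidence interval -0.35 to 0.10, limma adjusted p = 0.594), with -0.19 within slide 1 and -0.15 within slide 2. Klf10, an early target of TGF-beta, read -1.10, -1.22 and -1.59 on the knockout arrays, against -1.45, -1.53, -1.31 and -1.29 on the wild-type arrays. Knockout 1 was the highest of the 7 arrays for Klf10 and knockout 3 the lowest. The log2 difference was 0.09 (95% confidence interval -0.19 to 0.37, limma adjusted p = 0.771), an interval from a 1.14-fold fall to a 1.29-fold rise, with 0.20 within slide 1 and 0.04 within slide 2. The difference had opposite signs in the 2 kinds of array by sex-linked genes, at -0.29 for high Xist and 0.33 for low Xist.

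Klf2, Klf4, Klf5 and Klf6 encode factors that mostly activate transcription through coactivators, as KLF7 does. Klf2, the recirculation and quiescence factor of T cells, read -1.77, -1.41 and -1.26 on the knockout arrays, against -1.23, -1.02, -1.80 and -1.40 on the wild-type arrays. The groups overlapped, and the lowest array was wild type 3. Klf2 differed by -0.12 (95% confidence interval -0.54 to 0.29, limma adjusted p = 0.801), an interval from a 1.45-fold fall to a 1.22-fold rise, with -0.38 within slide 1 and -0.11 within slide 2. The difference was 0.34 among the arrays of high Xist and -0.47 among those of low Xist, and without knockout 1 it was 0.02.

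Klf4 read -4.32, -4.06 and -3.79 on the knockout arrays, against -4.14, -4.16, -4.19 and -4.20 on the wild-type arrays. The wild-type arrays were close together (SD 0.03), and the knockout arrays spread on both sides of them (SD 0.26). Klf4 differed by 0.12 (95% confidence interval -0.15 to 0.38, limma adjusted p = 0.678), and it was -0.02 without knockout 3. Within slide 1 it was -0.12, against 0.21 within slide 2. Klf4 lay far below the reference RNA on every array, though well above background on all 7. Its sample channel was dim, so the offset pulls these ratios together too, and the scanner's own log2 ratios were -4.56, -4.36 and -3.91 on the knockout arrays, against -4.43, -4.70, -4.76 and -4.33 on the wild-type arrays. On that scale the SD was 0.33 in the knockout and 0.21 in the wild type, the lowest array was wild type 3, and Klf4 differed by 0.28 (limma adjusted p = 0.473).

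Klf5, a growth factor-responsive regulator known from the intestinal crypt, read -2.00, -1.47 and -2.29 on the knockout arrays, against -1.53, -1.60, -1.47 and -1.51 on the wild-type arrays. Knockout 1 and 3 were below all wild-type arrays, and knockout 2 lay among them. The SD was 0.41 in the knockout and 0.05 in the wild type. The log2 difference of Klf5 was -0.40 (95% confidence interval -0.76 to -0.03, limma adjusted p = 0.216), and without knockout 2 it was -0.62 (limma adjusted p = 0.0156). Without knockout 3 it was -0.21 (limma adjusted p = 0.513). Among the arrays of high Xist it was -0.80 and among those of low Xist -0.18. Within slide 1 it was -0.50 and within slide 2 it was -0.35.

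Klf6, an immediate early gene of many stimulated cells, read 0.78, 1.24 and 1.44 on the knockout arrays, against 1.23, 1.35, 1.13 and 1.34 on the wild-type arrays. Knockout 1 was the lowest of the 7 arrays and knockout 3 the highest. Klf6 differed by -0.11 (95% confidence interval -0.44 to 0.22, limma adjusted p = 0.770), and without knockout 1 it was 0.08. The within-slide values of Klf6 were -0.56 in slide 1 and 0.11 in slide 2. Klf6, Klf7 and Klf12 were above the reference RNA on all 7 arrays, and the other 7 genes were below it on all 7.

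**Figure D2:**
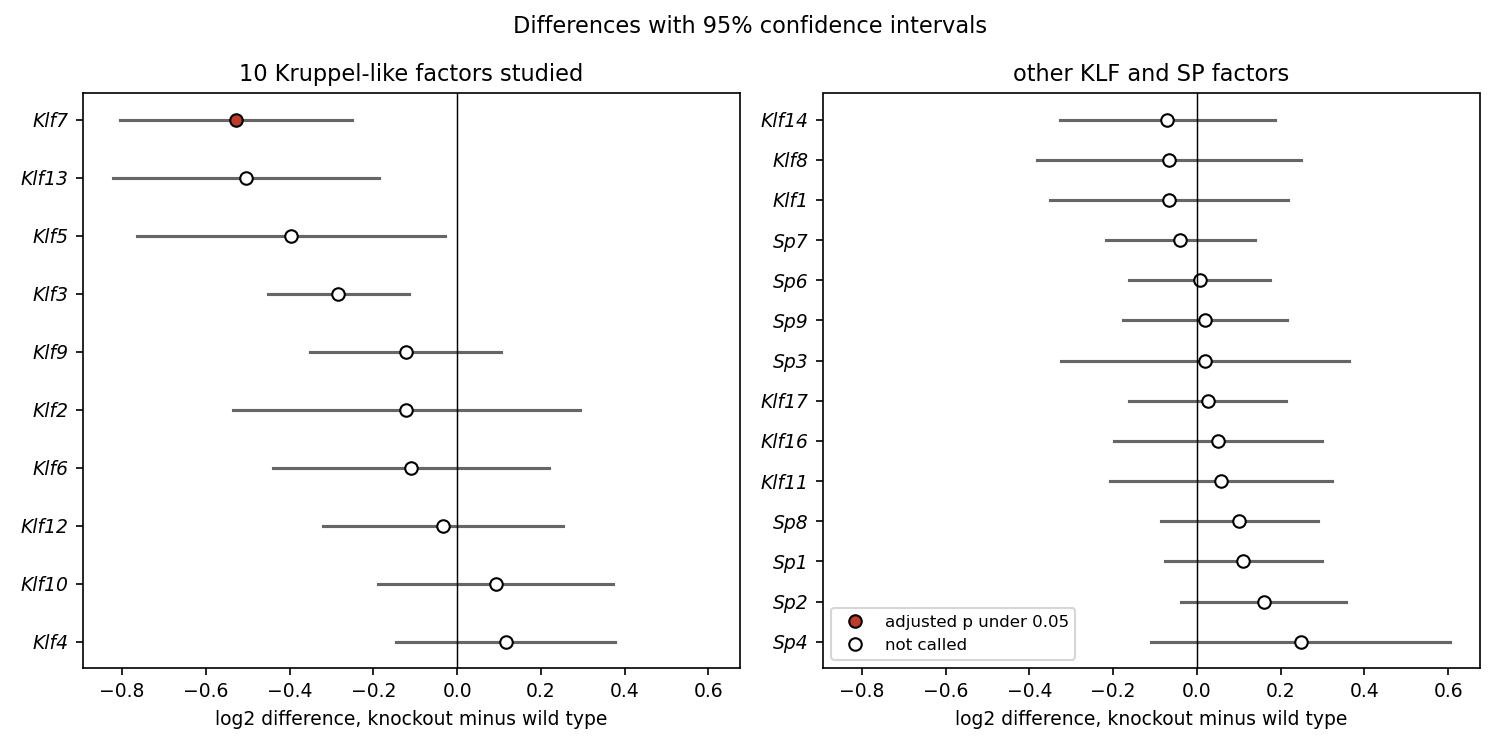
Log2 difference, knockout minus wild type, for the 10 Kruppel-like factor genes at left and 14 other KLF and SP factor genes at right, with 95% confidence intervals. The filled point is Klf7, at -0.53, and open points did not pass an adjusted p of 0.05.

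As a group, 8 of the 10 genes had a difference below 0 and 2 above it, where 54% of all genes tested lay below 0. The median difference was -0.12, against -0.01 over all genes tested. The knockout arrays did not overlap the wild-type arrays for 3 of the 10 genes (Klf3, Klf7 and Klf13), all lower. Among all genes tested this held for 18.2% in either direction and for 10.2% lower. With the scanner's own ratios the groups of Klf13 overlapped. At an unadjusted limma p under 0.05, 4 of the 10 genes stood apart (Klf3, Klf5, Klf7 and Klf13, all lower), against 19.5% of all genes in either direction and 10.5% lower. With 3 arrays against 4, an exact two-sided permutation test of a single gene cannot give a p below 0.0571.

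The genes also differed in their spread. The SD was larger in the knockout than in the wild type for 9 of the 10 genes, with Klf2 the exception, against 56.2% of all genes tested. SDs ran from 0.06 to 0.41 in the knockout and from 0.03 to 0.33 in the wild type. The lowest of the 7 arrays was a knockout array for 9 of the 10 genes, against 52.6% of all genes tested. With the scanner's own ratios the SD was larger in the knockout for 8 of the 10 genes (all but Klf2 and Klf12), and the lowest array was a knockout array for 8 (all but Klf2 and Klf4). On the ratios used here, knockout 1 was the lowest for Klf4, Klf6, Klf9 and Klf13 and the highest for Klf10 and Klf12. Knockout 3 was the lowest for Klf3, Klf5, Klf7 and Klf10 and the highest for Klf4 and Klf6. Knockout 3 was also the array with 1 scanner quality metric out of range and the only knockout array of high Xist, and the part of either in these values was not tested.

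**Figure D3:**
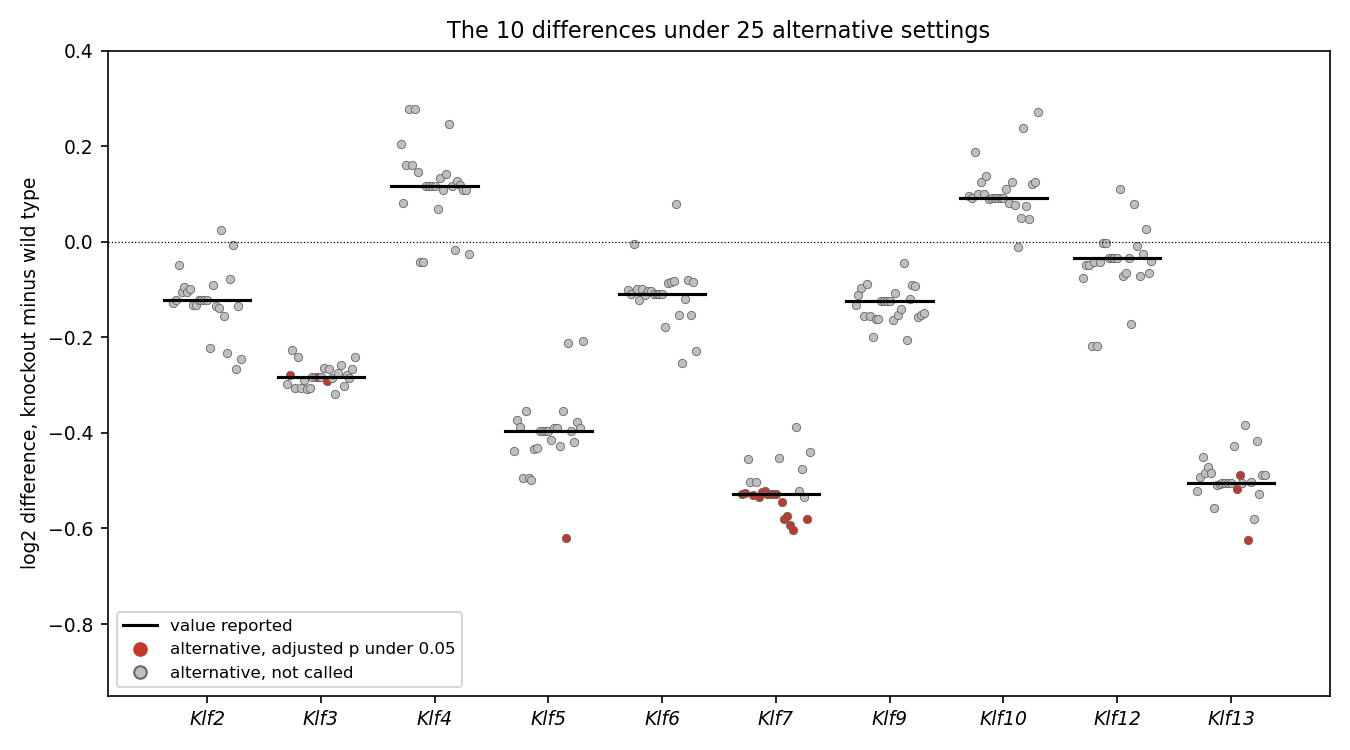
Log2 difference, knockout minus wild type, of each of the 10 genes as reported (line) and under 25 other settings of the processing and the fit (points, filled red where the adjusted p was under 0.05). Klf7 stayed below 0 in all 25 and passed in 16, and Klf3 and Klf13 stayed below 0 in all 25 and passed in 3 each.

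Of the 16 other KLF and SP factor genes, which share the zinc finger domain, 14 were tested (Klf15 and Sp5 were too dim). None of the 14 was called in limma or passed an unadjusted p under 0.05, against 7.5% and 19.5% of all genes tested. Their median log2 difference was 0.02, within a range of -0.07 to 0.25. Those with the smallest p were Sp2 (0.16, adjusted p = 0.375 in limma), Sp4 (0.25, adjusted p = 0.464) and Sp1 (0.11, adjusted p = 0.552). None of the 14 had groups that did not overlap, against 18.2% of all genes tested.

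FOXO1 and the ERK5-MEF2 pathway are known to switch on Klf2, and ERK5 also Klf4. Of 9 genes of these routes, 8 were tested and none was called in limma, against 7.5% of all genes tested. At an unadjusted limma p under 0.05, 2 of the 8 passed (Foxo1 and Mapk7), against 19.5% of all genes tested. Foxo1 read 1.11, 1.01 and 1.24 on the knockout arrays, against 0.69, 0.92, 0.74 and 0.82 on the wild-type arrays. All knockout arrays lay above all wild-type arrays, where 18.2% of all genes tested had groups that did not overlap. The Foxo1 difference was 0.33 (limma adjusted p = 0.0609). A second Foxo1 probe gave 0.28 (adjusted p = 0.297 in limma over all probes). Mapk7, which encodes ERK5, had a difference of -0.30 (limma adjusted p = 0.226), and Map2k5, which encodes the kinase above it, -0.18 (adjusted p = 0.458 in limma) and 0.01 on a second probe.

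Of 15 genes for corepressors, coactivators and ubiquitin ligases of KLF proteins, 1 was lower and none was higher, a share near the 7.5% of all genes called. Itch, an E3 ubiquitin ligase, read 1.65, 1.71 and 1.58 on the knockout arrays, against 2.03, 1.95, 2.40 and 2.21 on the wild-type arrays. The groups did not overlap, and the difference was -0.50 (limma adjusted p = 0.0279). Sin3b, Hdac3 and Smurf1 were next by p, with differences of 0.26, -0.19 and -0.18 (limma adjusted p = 0.172, 0.261 and 0.311). In the sample channel these 3 differed by 0.02, -0.09 and -0.18, and in the reference channel by -0.24, 0.10 and -0.01. The difference of Sin3b thus lay mostly in the reference channel, and that of Hdac3 was split between the sample and reference channels. A second Sin3b probe gave a log ratio difference of 0.23.

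Of 5 recirculation genes that KLF2 keeps on in T cells, 2 rose and none fell, against 3.26% and 4.23% of all genes tested. Klf2 itself differed by -0.12. Ccr7, the receptor for lymph node entry, read 3.49, 3.56 and 3.13 on the knockout arrays, against 0.92, 0.84, 1.04 and 0.41 on the wild-type arrays. S1pr1, the receptor for lymph node exit, read 1.83, 1.93 and 1.56 on the knockout arrays, against 0.02, 0.01, 0.09 and -0.57 on the wild-type arrays. Neither gene's groups came near each other, and the rises were 6.02-fold for Ccr7 (limma adjusted p = 3.63e-05) and 3.69-fold for S1pr1 (limma adjusted p = 2.36e-04). S1pr4, another sphingosine phosphate receptor, had a difference of -0.24 (adjusted p = 0.0866 in limma) and Itgb7, an integrin chain of gut homing, -0.14 (adjusted p = 0.752). S1pr4 did not overlap between the groups and lay lower in the knockout, as 10.2% of all genes tested did. In the sample channel alone S1pr4 differed by -0.42, past the threshold (limma adjusted p = 0.0203), and in the reference channel by -0.18. It passed in 2 of 25 other settings. None of the 10 T cell markers was called in limma, though 3 passed an unadjusted p under 0.05, against 7.5% and 19.5% of all genes tested. The list's median difference was 0.20. Their summed signal was 10095 to 21016 in the knockout and 10474 to 17106 in the wild type. The part of T cells in the values of Ccr7 and S1pr1 was not tested.

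Of 5 genes that KLF2 restrains in T cells, 1 rose and none fell, against 3.26% and 4.23% of all genes tested. Cxcr3, a chemokine receptor of type 1 responses, read 0.09, -0.04 and -0.24 on the knockout arrays, against -0.41, -0.36, -0.50 and -0.45 on the wild-type arrays. The difference was 0.37 (limma adjusted p = 0.0460). The cytokine gene Il4 had a difference of -0.22 and the receptor gene Ccr3 of 0.20, neither of them past the threshold (limma adjusted p = 0.163 and 0.388). In the sample channel Il4 differed by -0.09 and Ccr3 by 0.28, and in the reference channel by 0.12 and 0.08.

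**Figure D4:**
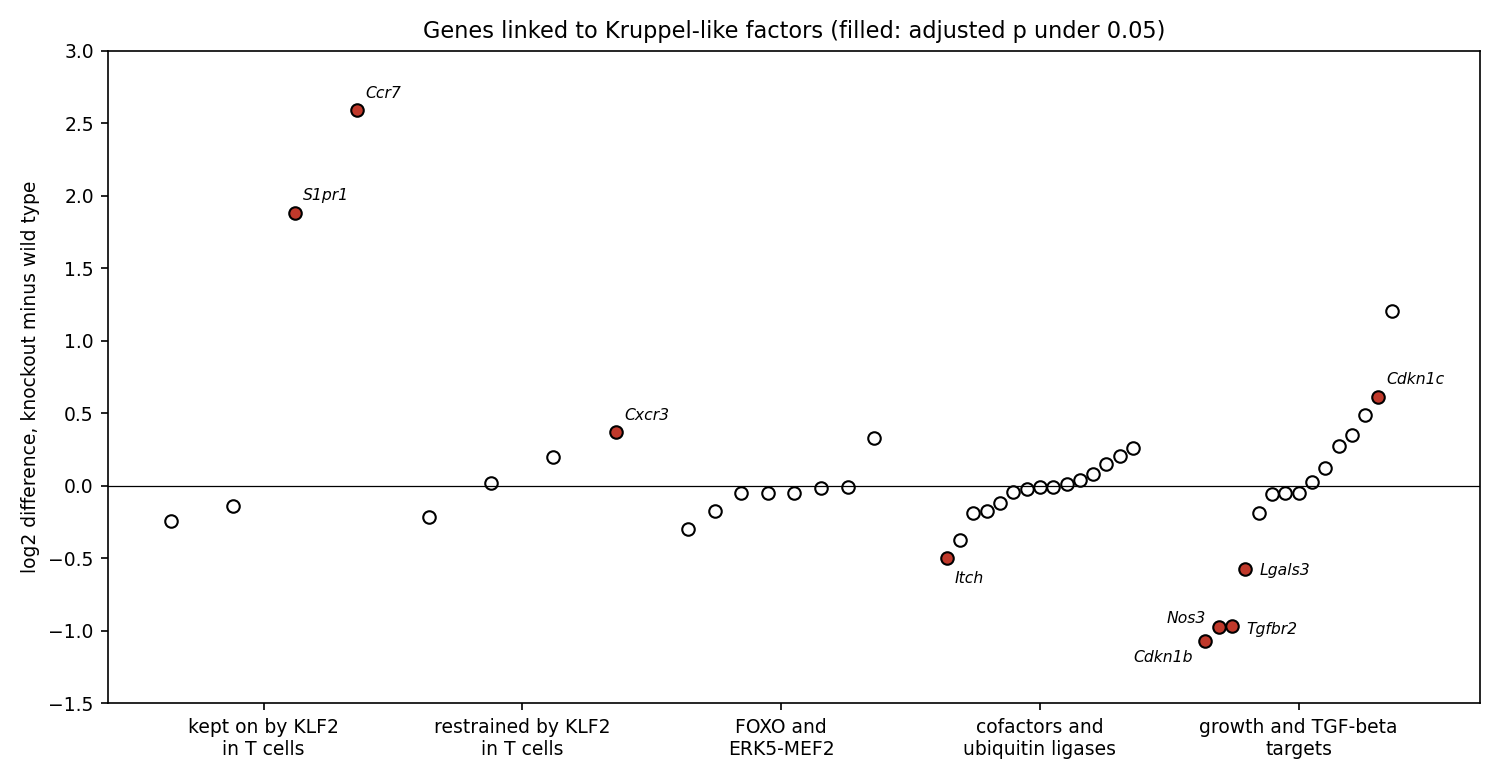
Log2 difference, knockout minus wild type, of the genes linked to Kruppel-like factors, 1 point for each gene reported, in the 5 lists named under the axis. The list marked as growth and TGF-beta targets also holds other genes tied to KLF proteins. Filled and named points passed an adjusted p of 0.05 and run from Ccr7 at 2.59 to Cdkn1b at -1.07.

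Of 15 growth, TGF-beta and other genes tied to KLF proteins, 1 rose and 4 fell, where 3.26% of all genes tested rose and 4.23% fell. Cdkn1c, a cyclin-dependent kinase inhibitor, read 0.22, 0.41 and 0.49 on the knockout arrays, against -0.29, -0.21, -0.27 and -0.20 on the wild-type arrays, a difference of 0.61 (limma adjusted p = 0.00309). Tgfbr2, a TGF-beta receptor chain, read 0.98, 1.03 and 1.11 on the knockout arrays, against 1.71, 1.89, 2.30 and 2.12 on the wild-type arrays. Its difference was -0.97 (limma adjusted p = 0.00268), and a second Tgfbr2 probe gave -0.86 (adjusted p = 0.00498 in limma over all probes). Both genes had groups that did not overlap.

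Cdkn1b, another kinase inhibitor, read 1.38, 1.02 and 0.05 on the knockout arrays, against 1.70, 1.74, 2.23 and 1.88 on the wild-type arrays, with knockout 3 far below the rest. Its difference was -1.07 (limma adjusted p = 0.0474), and without knockout 3 it was -0.68. Nos3, the endothelial nitric oxide synthase gene that KLF2 drives in endothelium, had a difference of -0.98 (limma adjusted p = 0.0112), but a second Nos3 probe gave -0.25 (adjusted p = 0.267), so the 2 probes disagree on its size. Lgals3, which encodes a galectin, had a difference of -0.57 (limma adjusted p = 0.0323). None of 6 endothelial, stromal or epithelial markers tested was called in limma, against 7.5% of all genes tested. At an unadjusted p under 0.05 in limma 1 of the 6 passed, against 19.5% of all genes tested. The summed signal of all 7 such markers on the array was 4107 to 4577 in the knockout and 4538 to 4966 in the wild type. The part of such cells in these values was not tested.

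Ccl5, the chemokine gene that KLF13 serves in T cells, read -0.02, -0.30 and -0.58 on the knockout arrays, against -0.68, -1.60, -2.94 and -0.79 on the wild-type arrays. The groups did not overlap, but the wild-type arrays spread over more than the gap, and the difference of 1.20 missed the threshold (limma adjusted p = 0.187). Ccnd2, a D-type cyclin, had a difference of 0.49 (adjusted p = 0.0523 in limma) and Tgfbr1 of 0.27 (adjusted p = 0.238).

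Over the 6 lists beside the 10 genes, 9 of 62 genes were called, 4 of them higher and 5 lower. Among all genes tested 7.5% were called, 3.26% higher and 4.23% lower. The lists were chosen with earlier results of these data known, so the counts do not test them against all genes. With the slide as a fixed block 2 of 62 were called, both higher (Ccr7 and S1pr1), and without wild type 4 there were 5. Ccr7 and S1pr1 passed under all 25 other settings. Tgfbr2, Cdkn1c and Nos3 passed under 24 of them, the exception being the slide as a fixed block. Itch passed under 13, Cxcr3 under 14, Lgals3 under 13 and Cdkn1b under 10. With 1 array left out, the call of Itch was lost without knockout 1, 2 or 3 and without wild type 4 (limma adjusted p up to 0.0817). Under the same leave-outs Cxcr3 passed only without knockout 3, Lgals3 only without knockout 3 or wild type 1, and Cdkn1b only without knockout 1 or 3 (limma adjusted p up to 0.126, 0.108 and 0.114).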

How the data were processed

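The deposited files are scanner output of 7 two-colour Agilent arrays, with spot intensities of the Cy5 sample and Cy3 reference channels extracted with Agilent Feature Extraction 11.0.1.1, per the file headers (the submitters' processing notes name 10.7.3.1). The files also hold the scanner's own log10 ratio, per the file headers, and the series table the authors deposited equals that ratio on the log2 scale within 0.001 on every array. Here 2597 spots flagged as feature outliers or with uneven local background were left out. Median intensities were background-corrected with normexp (offset 50) and normalized by loess within each array, with control spots at weight 0, in limma 3.58.1 (R 4.3.3). Probes were named through their accession in RefSeq's gene table (26581 of 39429 probes matched 1 gene, and the others kept the file's accession as their name). Testing required, for a gene's probe of highest mean sample signal, a sample channel well above background on 3 arrays or more and 2 or more values per group. That left 25361 genes, of which 1901 were called, 828 higher and 1073 lower in the knockout. Groups were compared with lmFit and eBayes over all 7 arrays, and p-values were adjusted by Benjamini-Hochberg over all tested genes (threshold 0.05). Precision is limited by the number of arrays.

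Channel values followed loess and Aquantile normalization. In all, 25 other settings were tried, among them slides, sex-linked genes and replicate numbers. The report names all 10 genes and, of each other list, every called gene and up to 3 others with the smallest p, except a few genes that are not reported here. The 10 genes and the lists were chosen with earlier results of these data known. Each sample is a pool of its own mice, per the labels, so the spread is between pools. Array positions in a genome were not used here, and promoter windows carry the build of their own table.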

Additional observations from a re-analysis of the deposited data

Results flagged for a closer look

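Of the genes named above, 3 had a wild-type array apart from the other 3, by Dixon's test on the 4 wild-type values at the 95% level. Sp2 read -0.27 on wild type 2, Sp4 read 1.06 on wild type 3, and S1pr1 read -0.57 on wild type 4. Such a test picks out about 1 in 20 groups by chance. None of the 10 Kruppel-like factor genes had such an array in the wild type, and the 3 knockout arrays are too few for the test.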

How the results depend on the processing

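Of the 10 genes, 1 was called as reported. None was called with median centring, with the scanner log ratio, with the series value table, with the slide as a fixed block, or (an alternative chosen after seeing the data) without both wild type 4 and knockout 3, that is 0 of 10 each time. There were 2 calls with no background correction and with the mean over probes (Klf3 and Klf7 both times). The mean over probes left the values of the 10 genes unchanged, since each has 1 probe. There were 3 calls with the slide as a random block (Klf3, Klf7 and Klf13). Leaving out each array in turn gave 0 to 3 calls, with 3 (Klf5, Klf7 and Klf13) without knockout 2. Klf7 stayed below 0 under all 25 settings, from -0.60 to -0.39, and its adjusted p ran from 0.00415 to 0.336. The 9 settings that lost its call include median centring (0.0800) and the scanner ratio (0.0955). Signs of genes that were not called turned in some settings. Klf4 was -0.043 with feature outliers left out only after the background model, -0.042 with no spot left out and -0.025 without both arrays. Klf12 was 0.11 with the slide as a fixed block. When each array was left out in turn, Klf2 ran from -0.27 to 0.025, Klf4 from -0.017 to 0.25, Klf6 from -0.25 to 0.080, Klf10 from -0.010 to 0.24, Klf12 from -0.17 to 0.078 and Itgb7 from -0.27 to 0.019, with knockout 1 left out where Klf2, Klf6, Klf10 and Itgb7 turned. The cause was not tested. Of the related genes, 9 were called as reported, 2 with the slide as a fixed block, and 5 to 9 when each array was left out. Of all genes, 1901 were called as reported, 478 with the slide as a fixed block, 1101 without both arrays, and 1252 (without knockout 2) to 1888 (without knockout 1) when each array was left out, with 1266 without wild type 4. Among called genes 43.6% were higher, and 55.3% of 1617 with median centring, which moved the median of all genes by less than 0.1. With the replicate number as a block 2 of the 10 genes (Klf7 and Klf13), 5 of the related genes and 1080 of all genes were called. Deviations of same-numbered arrays correlated at 0.04, 0.24 and 0.02, so the numbers were not taken as pairs. Counts of calls within a slide could not be made, since each slide has too few arrays for a test.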
